A study of Homo sapiens with 16 samples.

Results

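Matrix metalloproteinases (MMPs) and the tissue inhibitors that block them (TIMPs) were followed in bulk RNA-seq of a colon fibroblast line. The genes were taken by symbol: MMP1, MMP3, MMP10, MMP2, MMP14, MMP11, TIMP1, TIMP2 and TIMP3, 9 of the 40663 symbols of the count table. All 9 had a row, and all 9 were tested in each of the 6 comparisons made. The cells were Ccd18-Co, an established fibroblast line from human intestine, used up to passage 20 and seeded at 25000 cells per well, so the model is 1 line without epithelial or immune cells. There were 16 libraries in 4 groups of 4. Unstimulated cells received the solvent DMSO and no cytokines. In the other 3 groups the cells were first pulsed with TNF, OSM and IL-17A, each at 10 ng/ml, and IL-1B at 0.1 ng/ml, for 72 h per pulse with 96 h of recovery. After 1 week of rest they were given DMSO (vehicle), belinostat or GSK-J4. Belinostat inhibits histone deacetylases and was used at 250 nM. GSK-J4 blocks the enzymes that remove methyl groups from lysine 27 of histone H3 and was used at 10 µM. Compounds were present for 5 days, and RNA was taken 2 weeks after they were removed. Concentrations and group sizes are those of the labels. The study's text differs from them in places (IL-1B, belinostat, GSK-J4 and the number of replicates). Values below are normalized counts (estimated counts divided by the library's size factor) as mean ± SD with n = 4 unless stated, and a gene was called when its DESeq2 adjusted p was under 0.05 over all genes tested.

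MMPs are zinc-dependent proteases that cut the proteins of the extracellular matrix. Most are secreted as inactive proenzymes, and TIMPs bind the active enzymes and block them. In the gut, fibroblasts are a known source of collagenase and stromelysins in inflamed and ulcerated mucosa. MMP1 is a collagenase of fibrillar collagen. MMP3 and MMP10 are the stromelysins 1 and 2, close paralogs with a broad range of substrates that also activate other proMMPs. MMP2 is a gelatinase, MMP14 is a membrane-anchored enzyme that activates proMMP2 together with TIMP2, and MMP11 (stromelysin 3) is cleaved to its active form inside the cell. TIMP1 and TIMP2 are soluble, and TIMP3 is held in the matrix.

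MMP10, MMP1 and MMP3 are neighbours on chromosome 11. In GENCODE on hg38 they lie in that order on the minus strand between positions 102770502 and 102843609, a stretch of 73.1 kb. MMP10 and MMP1 are 8772 bp apart, and MMP1 and MMP3 are 37640 bp apart. The other members are scattered: MMP2 on chromosome 16, MMP14 on 14, MMP11 and TIMP3 on 22, TIMP2 on 17 and TIMP1 on X. The RefSeq promoter table (GRCh38.p14) held 5 of the 9 members, namely MMP10, MMP14, MMP11, TIMP1 and TIMP3, and it had no entry for MMP1, MMP2, MMP3 and TIMP2. The last 100 bases before the start site are shown for MMP10, a member of the chromosome 11 trio, and for TIMP3, an inhibitor. Capitals mark TGAATCA (a match to the AP-1 letters TGANTCA) and TATAAA in MMP10, and GGGCGG or its reverse complement CCGCCC (GC box) in TIMP3.
MMP10, chr11:102780629-102780728, minus strand: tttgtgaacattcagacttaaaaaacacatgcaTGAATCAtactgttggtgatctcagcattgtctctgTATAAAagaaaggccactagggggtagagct
TIMP3, chr22:32801605-32801704, plus strand: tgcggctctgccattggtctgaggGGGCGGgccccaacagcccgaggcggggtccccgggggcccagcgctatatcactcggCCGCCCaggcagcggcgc
Over the 250 bases before the start, searched on both strands, MMP10 held 1 AP-1 match at -67 to -61 and 1 TATAAA at -31 to -26, with a GC content of 34.4% and no GC box. TIMP3 held 5 GC boxes and a GC content of 72.4%, MMP11 3 and 73.2%, TIMP1 2 and 64.8%, and MMP14 1 and 56.8%. Neither AP-1 letters nor TATAAA were found in those 4 windows. Among 27305 promoters of the same length, 6.6% held the AP-1 letters, 11.1% TATAAA and 42.3% the GC box, and the median GC content was 58%. The motif AGGAAG (PEA3/ETS), held by 28.7% of the promoters, was found once, in TIMP1. These matches describe letters only. The start sites are those of RefSeq, and GENCODE places some of them earlier. In the last 100 bases, GENCODE exons of the gene itself covered up to 28 bases in TIMP1, 25 in MMP14 and 3 in MMP11. None reached the windows shown for MMP10 and TIMP3.

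The libraries held 14.4 to 19.5 M estimated counts. In belinostat, library 17 stood apart: it was the farthest of its group's 4 libraries in 47.8% of 11741 genes, and results that rest on it are given with and without it. The next such shares were 39.2% for vehicle library 16, 37.4% for unstimulated library 1 and 33.9% for unstimulated library 3. The fibroblast identity was checked on fixed markers. All 10 fibroblast markers were expressed in every group, at a summed level of 431800 to 575216 normalized counts per library. The 5 epithelial markers summed to 2.9 to 30.1, with KRT20 at 0 in all libraries. The 6 leukocyte markers summed to 152 to 481, nearly all of it CD68, with CD3E and MS4A1 at 0, and the 5 endothelial markers to 7357 to 10171, nearly all of it TEK. TEK was called higher under belinostat than in vehicle (0.18, DESeq2 adjusted p = 0.0437). The call was lost without library 17 (0.14, DESeq2 adjusted p = 0.142) and with edgeR. In all libraries of both groups CDH5 was at 0 and PECAM1 and CLDN5 stayed below 9 normalized counts. VWF averaged 31.8 in unstimulated cells, 19.7 in vehicle, 22.3 under belinostat and 25.6 under GSK-J4, and was called in no comparison. The part of these markers in the results was not tested. Of the fibroblast markers, belinostat against vehicle called COL1A1 and PDGFRA lower, GSK-J4 against vehicle COL1A2 and COL3A1 higher, and vehicle against unstimulated cells LUM higher. Over all genes tested, 6.26%, 1.92% and 1.74% were called in these comparisons. edgeR called 1, 0 and 0 of the fibroblast markers in them. Without library 17, LUM was also called higher under belinostat than in vehicle (0.23, DESeq2 adjusted p = 0.00737). The labels do not say that libraries of a group came from separate cultures, so p-values measure the spread between these libraries, which may be technical.

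Per kilobase of the canonical transcript, the members fell into 2 tiers. In vehicle MMP2 stood first at 14289 ± 312 normalized counts per kb, followed by TIMP2 (8201 ± 304), TIMP1 (6817 ± 650), MMP14 (4496 ± 152) and TIMP3 (3084 ± 120). The lower tier held MMP3 (609 ± 147), MMP1 (416 ± 123), MMP11 (153 ± 10.9) and MMP10 (29.8 ± 7.78), so MMP1 and MMP3 were minor transcripts beside MMP2 even after the cytokine pulses. The upper 5 kept this order of means in all 4 groups, and only TIMP2 and TIMP1 under GSK-J4 overlapped between neighbours. In the lower tier, MMP3 had the highest mean per kb of transcript in every group. Its libraries overlapped those of MMP11, and those of MMP11 overlapped MMP1, in unstimulated cells and under belinostat. MMP3 overlapped MMP1 in vehicle. The order within both tiers depends on the length used. Per kilobase of coding sequence TIMP2 stood first, at 45381 ± 1683 in vehicle, ahead of MMP2 at 25359 ± 554, and in unstimulated cells the mean of MMP11 (269 ± 8.26) was above that of MMP3 (256 ± 85.7), with overlapping libraries.

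Cytokine-pulsed cells given vehicle held 2.73-fold more MMP1 and 3.03-fold more MMP3 RNA than unstimulated cells, 2 weeks after the compound period ended. MMP1 was lower under belinostat than in vehicle and was not called different from unstimulated cells, with a mean of 275 against 299.8. GSK-J4 libraries held the highest MMP3 of all groups. MMP10 was low and spread widely. In bulk RNA, fewer expressing cells and less RNA per cell cannot be told apart.

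For MMP1, the unstimulated libraries held 376, 346, 225 and 251 normalized counts, and the vehicle libraries 767, 648, 687 and 1174. The belinostat libraries held 482, 211, 216 and 189, and the GSK-J4 libraries 836, 1077, 787 and 769. Every vehicle and GSK-J4 library lay above every unstimulated and belinostat library, and belinostat library 17 was the highest of its group. The means were 299.8 ± 72.9, 819 ± 242, 275 ± 139 and 867 ± 143. MMP1 was 2.73-fold higher in vehicle than in unstimulated cells (log2 fold change 1.45, SE 0.31, DESeq2 adjusted p = 0.000446). It was 2.98-fold lower under belinostat than in vehicle (-1.58, SE 0.31, DESeq2 adjusted p = 2.17e-05). Under GSK-J4 it differed from vehicle by 0.08 (95% interval -0.51 to 0.68), and belinostat and unstimulated cells differed by -0.13 (95% interval -0.73 to 0.48), neither of which passed the test. Without library 17 the fall under belinostat was -2.00 (DESeq2 adjusted p = 7.12e-14).

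For MMP3, the unstimulated libraries held 539, 369, 279.6 and 277 normalized counts, and the vehicle libraries 1063, 905, 972 and 1498. The belinostat libraries held 1139.9, 401, 457 and 324, and the GSK-J4 libraries 1881, 2513, 1989 and 1765. GSK-J4 was above all other libraries, while belinostat library 17 lay within the vehicle range and the other belinostat libraries below it. The means were 366 ± 123, 1109.6 ± 267, 580.4 ± 377 and 2037 ± 330. MMP3 was 3.03-fold higher in vehicle than in unstimulated cells (1.60, SE 0.36, DESeq2 adjusted p = 0.00163). Belinostat against vehicle gave -0.93 (SE 0.36, DESeq2 adjusted p = 0.119), which was not called in this fit. It was called with limma-voom (-1.06, adjusted p = 0.0404), with 2 surrogate variables (-0.92, DESeq2 adjusted p = 1.55e-05) and without library 17 (-1.49, DESeq2 adjusted p = 4.25e-07). GSK-J4 against vehicle gave 0.88 (SE 0.36, DESeq2 adjusted p = 0.291), although the groups did not overlap. That comparison was called when only these groups were fitted (0.87, DESeq2 adjusted p = 0.000763) and with 2 surrogate variables in the fit (0.76, adjusted p = 0.00159). Against unstimulated cells, GSK-J4 stood 5.56-fold higher (2.48, SE 0.36, DESeq2 adjusted p = 2.96e-09).

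For MMP10, the unstimulated libraries held 46.3, 32.0, 24.9 and 21.5 normalized counts and the vehicle libraries 40.9, 59.4, 41.0 and 68.2. The belinostat libraries held 47.7, 12.2, 22.7 and 17.7, and the GSK-J4 libraries 51.9, 87.0, 50.8 and 45.1. The groups overlapped in every comparison. Vehicle against unstimulated cells gave 0.75 (SE 0.36, DESeq2 adjusted p = 0.486), and belinostat against vehicle -1.05 (SE 0.37, DESeq2 adjusted p = 0.0621). The latter was called with 2 surrogate variables (-1.02, DESeq2 adjusted p = 0.0172) and without library 17 (-1.57, DESeq2 adjusted p = 0.000406). These values rest on few reads, since 1 belinostat library held 10.4 estimated counts of MMP10. MMP3 and MMP10 also share similar sequence, and both carried fractional counts, so reads may have been split between them.

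**Figure D1:**
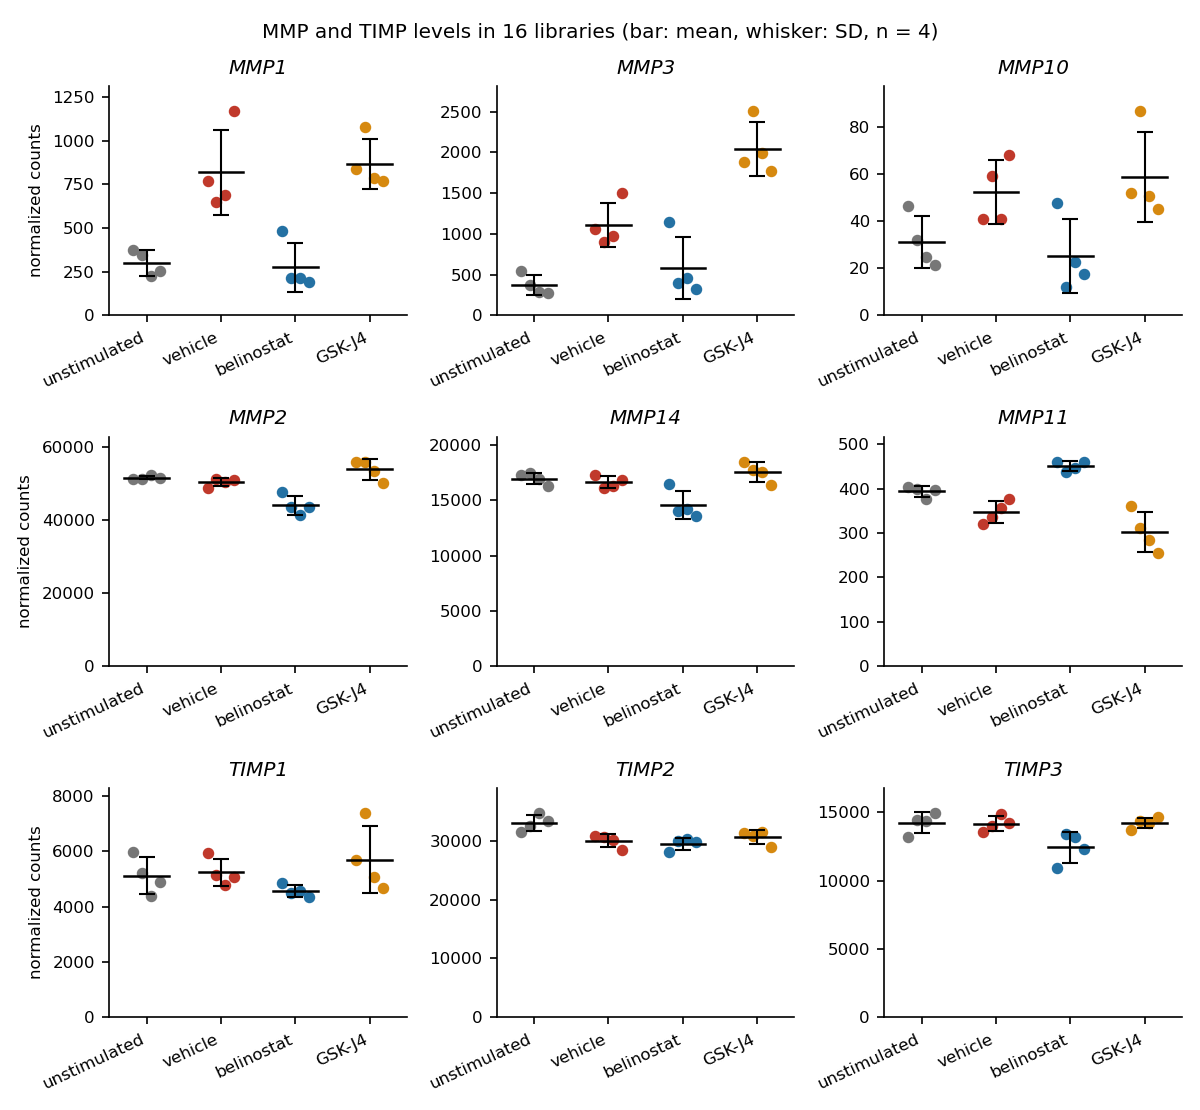
Normalized counts (vertical axis, from 0) of the 9 genes in each of the 16 libraries, by group on the horizontal axis, with the mean as a bar and the SD as whiskers (n = 4). MMP1 and MMP3 separate vehicle from unstimulated cells without overlap, and 1 belinostat library (482 for MMP1) lies above the other 3 of its group. The group means of MMP2, MMP14, TIMP2 and TIMP3 lie closer together, and 1 GSK-J4 library of TIMP1 reaches 7408.

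MMP1 and MMP3 moved together from library to library but not in a fixed proportion. After subtraction of each group's mean on the log2 scale, Pearson's r between the deviations of MMP1 and MMP3 was 0.96 over 16 libraries and 0.93 over 15 without belinostat library 17. For MMP3 with MMP10 it was 0.87 and 0.79, and for MMP1 with MMP10 0.84 and 0.74. Genes outside the trio also followed it. For MMP14 it was 0.77 and 0.59 with MMP1, and 0.80 and 0.62 with MMP3. TIMP2 went the other way, at -0.71 and -0.65 with MMP1. Both genes of a pair were read in the same library, with its culture, depth and preparation, and the values are descriptions. The ratio of MMP3 to MMP1 counts within a library was 1.21 ± 0.16 in unstimulated cells and 1.37 ± 0.06 in vehicle. It was 2.02 ± 0.28 under belinostat and 2.35 ± 0.12 under GSK-J4. The lowest belinostat ratio, 1.71, was above the highest ratio of either group without a compound, 1.43. Library 17, apart in the level of both genes, had a ratio of 2.36, the highest of its group. The ratio was looked at after the levels were seen and was given no test.

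**Figure D2:**
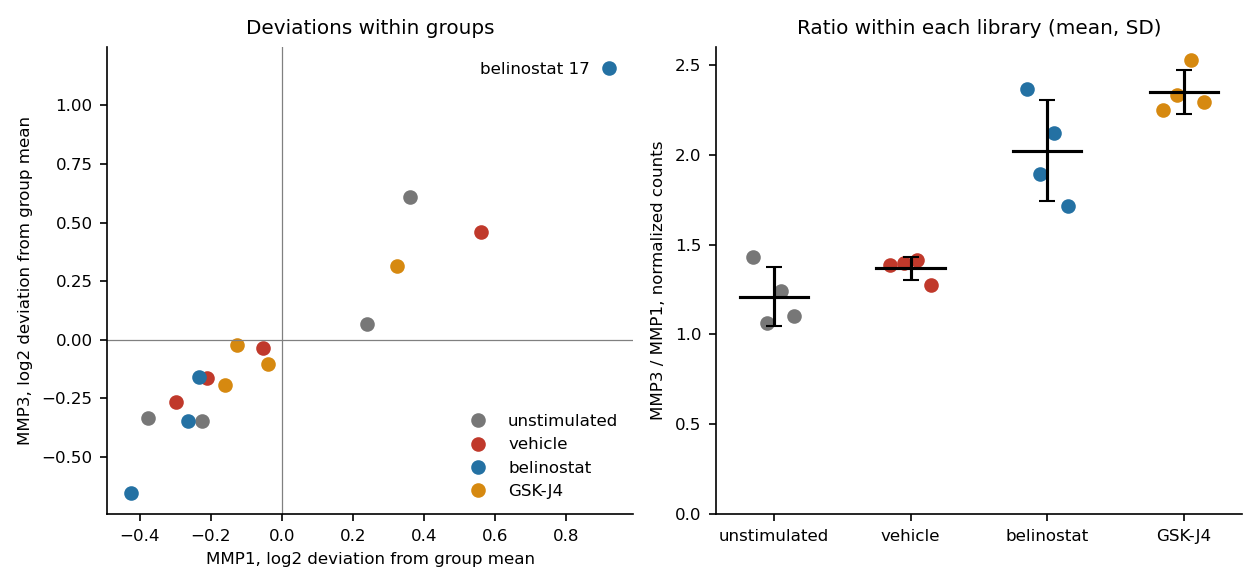
Left, the log2 deviation of MMP3 from its group mean (vertical) against that of MMP1 (horizontal) for 16 libraries coloured by group. The points run along 1 diagonal with belinostat library 17 at its upper end. Right, the ratio of MMP3 to MMP1 normalized counts in each library with mean and SD (n = 4), where all libraries given a compound (1.71 and above) lie over all libraries without one (1.43 and below).

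The abundant enzymes MMP2 and MMP14 differed by at most 1.22-fold in the 6 comparisons. MMP2 held 51269, 51222, 52347 and 51337 normalized counts in unstimulated libraries and 48621, 51013, 50344 and 50864 in vehicle. It held 47610, 43540, 41363 and 43520 under belinostat and 55796, 55903, 53252 and 49994 under GSK-J4. All belinostat libraries lay below all others. MMP2 fell by 0.19 on the log2 scale under belinostat against vehicle (SE 0.05, DESeq2 adjusted p = 0.00117). With edgeR's quasi-likelihood test the adjusted p was 0.0579. GSK-J4 against vehicle gave 0.10 (SE 0.05, DESeq2 adjusted p = 0.404).

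MMP14 held 16253 to 17427 normalized counts in unstimulated libraries and 16064 to 17320 in vehicle. It held 16445, 14047, 14179 and 13618 under belinostat and 16407 to 18494 under GSK-J4. Library 17 lay inside the vehicle range and the other belinostat libraries below it. MMP14 fell by 0.19 under belinostat against vehicle (SE 0.06, DESeq2 adjusted p = 0.0177). The call was lost with edgeR (adjusted p = 0.0854), with limma-voom (adjusted p = 0.0742), in a fit of only these groups (DESeq2 adjusted p = 0.0736), and when vehicle library 13 or 16 or belinostat library 18, 19 or 20 was left out (-0.16 to -0.19). Without library 17 it was -0.25 (DESeq2 adjusted p = 6.61e-07).

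MMP11 went the other way. It held 403, 399, 376 and 397 normalized counts in unstimulated libraries and 319.8, 335, 357 and 376 in vehicle. It held 459, 437, 446 and 461 under belinostat and 361, 310.2, 284 and 256 under GSK-J4. Belinostat was above every other library, and GSK-J4 overlapped vehicle. MMP11 rose 1.30-fold under belinostat against vehicle (log2 0.38, SE 0.09, DESeq2 adjusted p = 0.00107). Each alternative fit of that comparison also called MMP11. GSK-J4 against vehicle gave -0.20 (SE 0.09, DESeq2 adjusted p = 0.422). Between GSK-J4 and unstimulated cells the log2 difference in MMP11 was -0.38 (SE 0.09, DESeq2 adjusted p = 0.00174).

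The inhibitors differed by at most 1.25-fold in the 6 comparisons. TIMP1 averaged 5120.0 ± 676 normalized counts in unstimulated cells, 5242 ± 500.2 in vehicle, 4567 ± 207 under belinostat and 5708 ± 1208 under GSK-J4, where 1 library reached 7408. It was called in none of the 6 comparisons by DESeq2 or edgeR with all libraries, and 1 of the 6 had an unadjusted p under 0.05, belinostat against GSK-J4 at -0.32 (SE 0.12, DESeq2 adjusted p = 0.0594). That comparison was called without belinostat library 17 (-0.35) or GSK-J4 library 23 (-0.38) or 24 (-0.41). TIMP2 averaged 33035 ± 1366, 29951 ± 1111, 29495 ± 1011 and 30649.8 ± 1160 in the same order. Its unstimulated libraries (31519 to 34771) lay above its vehicle libraries (28342 to 30750), at -0.14 (SE 0.04, DESeq2 adjusted p = 0.0536), and the difference was called with TMM factors (-0.14, DESeq2 adjusted p = 0.0430), with 2 surrogate variables (-0.15, DESeq2 adjusted p = 0.00159) and without unstimulated library 1 (-0.16, DESeq2 adjusted p = 0.0186). Belinostat against unstimulated cells was called at -0.16 (SE 0.04, DESeq2 adjusted p = 0.00283; edgeR adjusted p = 0.0522, limma-voom adjusted p = 0.0511), and belinostat against vehicle gave -0.02 (95% interval -0.11 to 0.06).

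TIMP3 averaged 14259 ± 740 normalized counts in unstimulated cells, 14176.5 ± 554 in vehicle and 14221 ± 395 under GSK-J4. The belinostat libraries held 10903, 13432, 13166 and 12329, all below the vehicle libraries (13569 to 14902), and library 17 was the lowest. TIMP3 fell by 0.19 under belinostat against vehicle (SE 0.06, DESeq2 adjusted p = 0.0371). This call was lost with edgeR (adjusted p = 0.109), with limma-voom (adjusted p = 0.106), in a fit of only these groups (DESeq2 adjusted p = 0.121), without library 17 (-0.13, DESeq2 adjusted p = 0.0903), and without vehicle library 14, 15 or 16 or belinostat library 20 (-0.16 to -0.19). Summed per kilobase of transcript, the 3 TIMPs amounted to 0.950 ± 0.021 of the 6 MMPs in unstimulated cells, 0.906 ± 0.053 in vehicle, 0.981 ± 0.087 under belinostat and 0.868 ± 0.041 under GSK-J4. Belinostat library 17 was at 0.856 and the others of its group at 1.013, 1.058 and 0.998, against at most 0.973 in the other groups. The ratio was given no test. Per kilobase of coding sequence the ratio was 1.98 to 2.29 in the group means, so the length used sets its size.

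Exons of 3 members overlap exons of other genes in GENCODE: MMP1 with WTAPP1 over 150 bases on the opposite strand, TIMP2 with ENSG00000267601 over 367 bases on the opposite strand, and MMP2 with ENSG00000279030 over 174 bases on its own strand. The labels do not state a strand-specific preparation, so reads from those bases cannot be assigned with certainty.

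Counted over comparisons, vehicle against unstimulated cells called 2 of the 9 members, both higher, where 1.74% of all genes tested were called (1.1% higher, 0.634% lower). Belinostat against vehicle called 5 (4 lower, 1 higher) where 6.26% of genes were called (3.12% higher, 3.13% lower), and 6 without library 17, where 8.27% were called. GSK-J4 against vehicle called 0 where 1.92% were called (1.1% higher, 0.818% lower), with 3 members at an unadjusted p under 0.05 (MMP3, MMP2 and MMP11) and 0 called by edgeR. The median log2 fold change of the members was -0.01, -0.19 and 0.08 in these comparisons, and that of all genes tested was within 0.01 of 0. Groups did not overlap for 5, 4 and 1 members, where 6.93%, 11.4% and 10% of genes tested did not overlap. All comparisons with vehicle use the same 4 vehicle libraries.

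Set directly against each other, with doses that were not matched, belinostat and GSK-J4 differed in 7 of the 9 members, where 12.2% of genes were called (6.18% higher, 6.01% lower). Groups did not overlap for 5 of the 9, against 17% of genes. MMP1 was 3.16-fold lower under belinostat (-1.66, SE 0.31, DESeq2 adjusted p = 2.60e-06) and MMP3 3.51-fold lower (-1.81, SE 0.36, DESeq2 adjusted p = 2.02e-05). MMP10 was 2.31-fold lower (-1.21, SE 0.37, DESeq2 adjusted p = 0.0114), a call lost without belinostat library 18 or 20 or GSK-J4 library 22 (-0.96 to -1.07). MMP2 (-0.29), MMP14 (-0.27) and TIMP3 (-0.19) were lower and MMP11 (0.57) higher. The TIMP3 call was lost with edgeR (adjusted p = 0.0589), with limma-voom (adjusted p = 0.0556) and without belinostat library 20 or GSK-J4 library 22, 23 or 24 (-0.18 to -0.19). Against unstimulated cells, belinostat called 4 members, all lower (MMP2, MMP14, TIMP2 and TIMP3), where 10.3% of genes were called (5.51% higher, 4.77% lower). The TIMP3 call among them (-0.20) was lost with edgeR (adjusted p = 0.0546), with limma-voom (adjusted p = 0.0545), in a fit of only these groups (DESeq2 adjusted p = 0.136) and without unstimulated library 2 or 4 or belinostat library 17 or 20 (-0.14 to -0.19). GSK-J4 called 3, MMP1 and MMP3 higher and MMP11 lower, where 5.55% were called (3.18% higher, 2.37% lower). Groups did not overlap for 3 members in each, where 12.3% and 11.9% of genes did not.

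**Figure D3:**
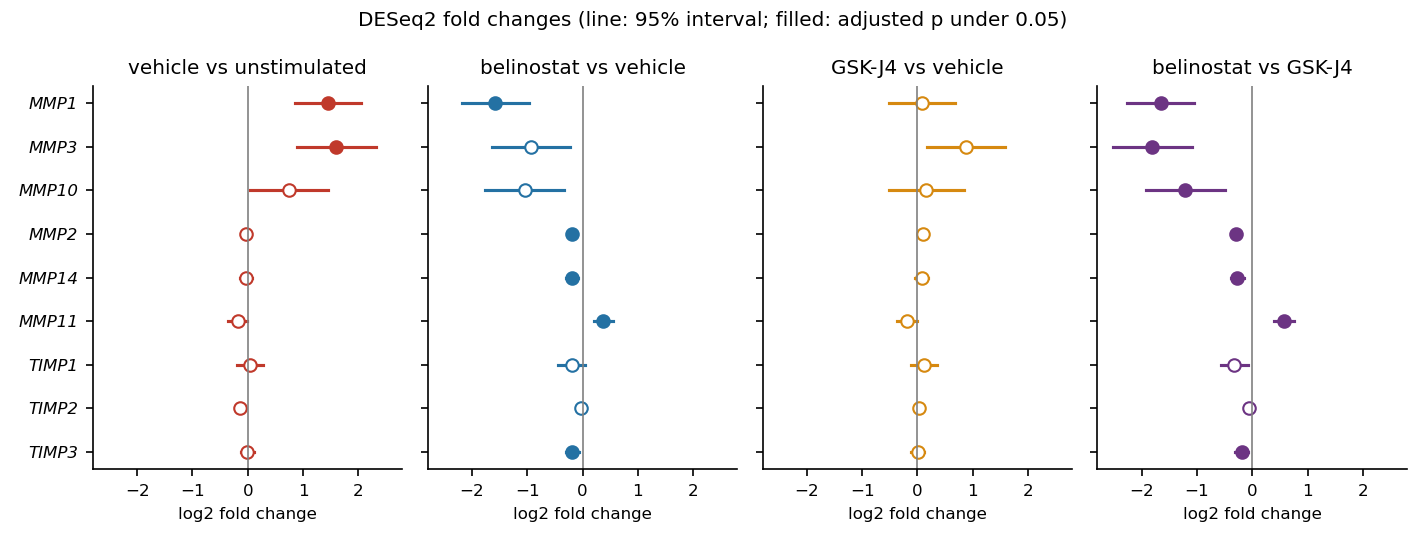
DESeq2 log2 fold changes of the 9 members (points) with 95% intervals (lines) in 4 comparisons of 4 against 4 libraries, filled where the adjusted p was under 0.05. The intervals of MMP1, MMP3 and MMP10 are wide, those of the abundant genes narrow, and MMP11 is the member right of 0 under belinostat (0.38 against vehicle).

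The chromosome 11 cluster holds 9 MMP genes over 435.2 kb, and expression was concentrated on the trio in its middle. The 6 other genes of the cluster stayed below a group mean of 10 normalized counts. MMP12 averaged 0.95 in unstimulated cells, 4.68 in vehicle, 1.82 under belinostat and 8.72 under GSK-J4, with at most 12 counts in a library and 0 in 4 libraries. It was tested in 2 comparisons and not called, at DESeq2 adjusted p = 0.492 for vehicle and 0.0540 for GSK-J4 against unstimulated cells. MMP20 and MMP26, the latter outside the cluster, had 0 counts in all 16 libraries, which allows up to 0.154 to 0.208 CPM per library for counting error only.

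**Figure D4:**
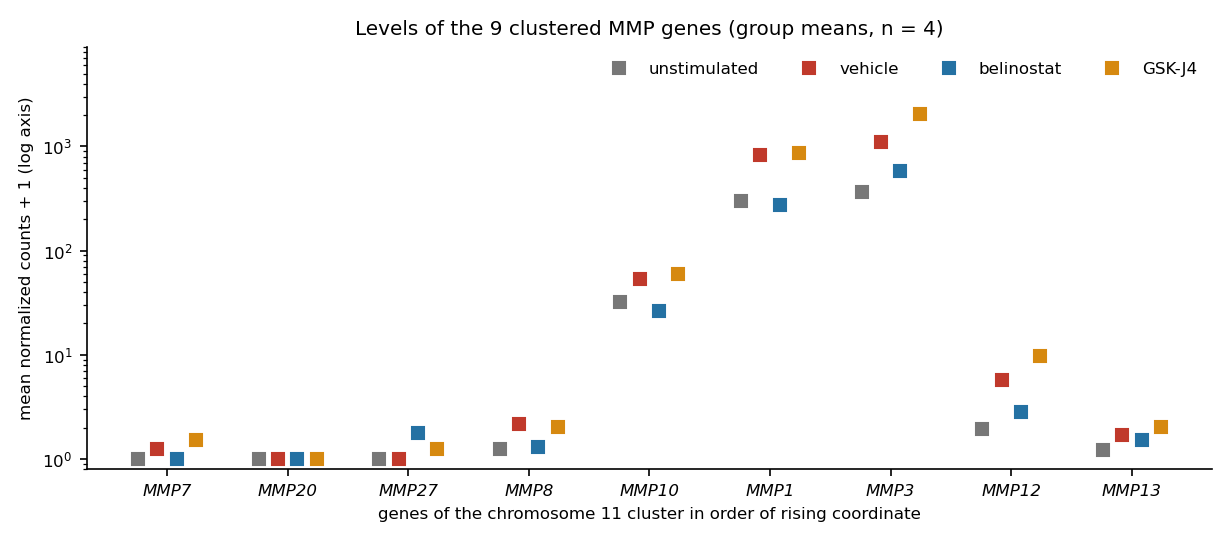
Mean normalized counts + 1 (log axis) of the 9 MMP genes of the chromosome 11 cluster, in order of rising coordinate, by group (n = 4). MMP10, MMP1 and MMP3 stand above the rest, and MMP12, the next gene, is low in all groups (8.72 at most).

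Of the 18 other members of both families, none was called in any of the 6 comparisons by DESeq2 or edgeR, where 6 to 10 of them could be tested by DESeq2. At an unadjusted p under 0.05 there were 0 to 2 per comparison, among MMP12, MMP16 and TIMP4. MMP24 was called without library 17 in belinostat against vehicle (0.71, DESeq2 adjusted p = 0.0474) and against unstimulated cells (0.78, DESeq2 adjusted p = 0.0194). Library 17 held 27.7 normalized counts of it, and the others of its group 101, 114 and 83.1. The 6 with over 20 normalized counts in a group were MMP15, MMP16, MMP17, MMP19, MMP23B and MMP24, and their group means ran from 25.5 to 564.

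Of 14 genes that activate, clear or dock MMPs, none was called in vehicle against unstimulated cells by DESeq2 or edgeR, and 3 had an unadjusted p under 0.05 (PLAU, PLAT and CD44). Belinostat against vehicle called 5, 3 higher and 2 lower, and the list's median was -0.05. edgeR called 4, and DESeq2 without library 17 called 7, the same 5 among them. Gained without it were PCSK6 (0.30, DESeq2 adjusted p = 0.00737) and A2M (-0.57, DESeq2 adjusted p = 0.0210). Over all genes tested, DESeq2 called 6.26% in this comparison (3.12% higher, 3.13% lower) and 8.27% without library 17. PLAT, the tissue plasminogen activator, averaged 11621 ± 1353 normalized counts in vehicle and 5866 ± 933 under belinostat (-0.99, SE 0.12, DESeq2 adjusted p = 1.85e-14). SERPINE2, protease nexin 1, rose by 0.43 (SE 0.08), and CD44, a hyaluronan receptor on which some MMPs dock, by 0.30 (SE 0.06). FURIN (-0.26), a convertase that cleaves proMMP14 and proMMP11, and RECK (0.15), a membrane-anchored inhibitor of MMPs, were also called, the latter named after its values were seen. GSK-J4 against vehicle called 2, A2M and SERPINE2, against 1 by edgeR. A2M, the protease trap alpha-2-macroglobulin, was at 4109 ± 694 in vehicle and 8454 ± 1204 under GSK-J4 (1.04, SE 0.30, DESeq2 adjusted p = 0.0346). SERPINE2 was at -0.38 (SE 0.08, adjusted p = 0.000375 by DESeq2). Under belinostat A2M held 885 normalized counts in library 17 and 2755, 2917 and 2659 in the others. All lay below the vehicle libraries (3329 to 4981), though A2M was not called there with all libraries. Over all genes tested, DESeq2 called 1.92% in GSK-J4 against vehicle and 1.74% in vehicle against unstimulated cells.

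Of 15 genes for factors known to bind MMP promoters, belinostat against vehicle called 4, all lower, and the list's median was -0.16. edgeR called 2, and DESeq2 without library 17 called 5, of which 3 were among the 4. Over all genes tested, DESeq2 called 6.26% in this comparison (3.12% higher, 3.13% lower) and 8.27% without library 17. JUNB fell by 0.44 (SE 0.09, DESeq2 adjusted p = 0.000127), JUN by 0.28 (SE 0.06, DESeq2 adjusted p = 0.000698) and FOSL2 by 0.27 (SE 0.08, DESeq2 adjusted p = 0.00988), all subunits of AP-1. NFKB1, a subunit of NF-kappaB, fell by 0.17 (SE 0.06, DESeq2 adjusted p = 0.0391) and was not called without library 17. FOS (0.06), JUND (0.11) and RELA (-0.0049) were not called. Vehicle against unstimulated cells called none by DESeq2 or edgeR, with 1 at an unadjusted p under 0.05 (FOSL1). GSK-J4 against vehicle also called none by either tool, with 2 at an unadjusted p under 0.05 (FOSB and JUN). Over all genes tested, DESeq2 called 1.74% in vehicle against unstimulated cells and 1.92% in GSK-J4 against vehicle.

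Of 12 matrix substrates, belinostat against vehicle called 3 higher and 3 lower, against 4 in all by edgeR, and the same 6 were called without library 17. Vehicle against unstimulated cells called none by DESeq2 or edgeR, with 3 at an unadjusted p under 0.05 (ELN, BGN and VCAN). Over all genes tested, DESeq2 called 1.74% in vehicle against unstimulated cells and 1.92% in GSK-J4 against vehicle. In belinostat against vehicle it called 6.26% of all genes tested, and 8.27% without library 17. ELN, elastin, held 76.3 ± 28.3 normalized counts in vehicle and 160.1 ± 76.7 under belinostat (1.07, SE 0.33, DESeq2 adjusted p = 0.0257), with overlapping groups. The proteoglycan gene BGN fell by 0.56 (SE 0.10), the fibronectin gene FN1 by 0.34 (SE 0.06) and the type I collagen gene COL1A1 by 0.29 (SE 0.08). The basement membrane genes COL4A1 (0.28) and COL4A2 (0.20) were the others called higher. GSK-J4 against vehicle called 4, all higher, against 1 by edgeR: FN1 (0.29, SE 0.06), COL3A1 (0.22, SE 0.06), COL1A2 (0.22, SE 0.04) and COL4A2 (0.20, SE 0.05). FN1 was thus lower under belinostat and higher under GSK-J4, and the compounds differed in it by -0.63 (SE 0.06, DESeq2 adjusted p = 1.94e-24). COL1A1, COL1A2 and COL3A1 are also among the fibroblast markers.

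**Figure D5:**
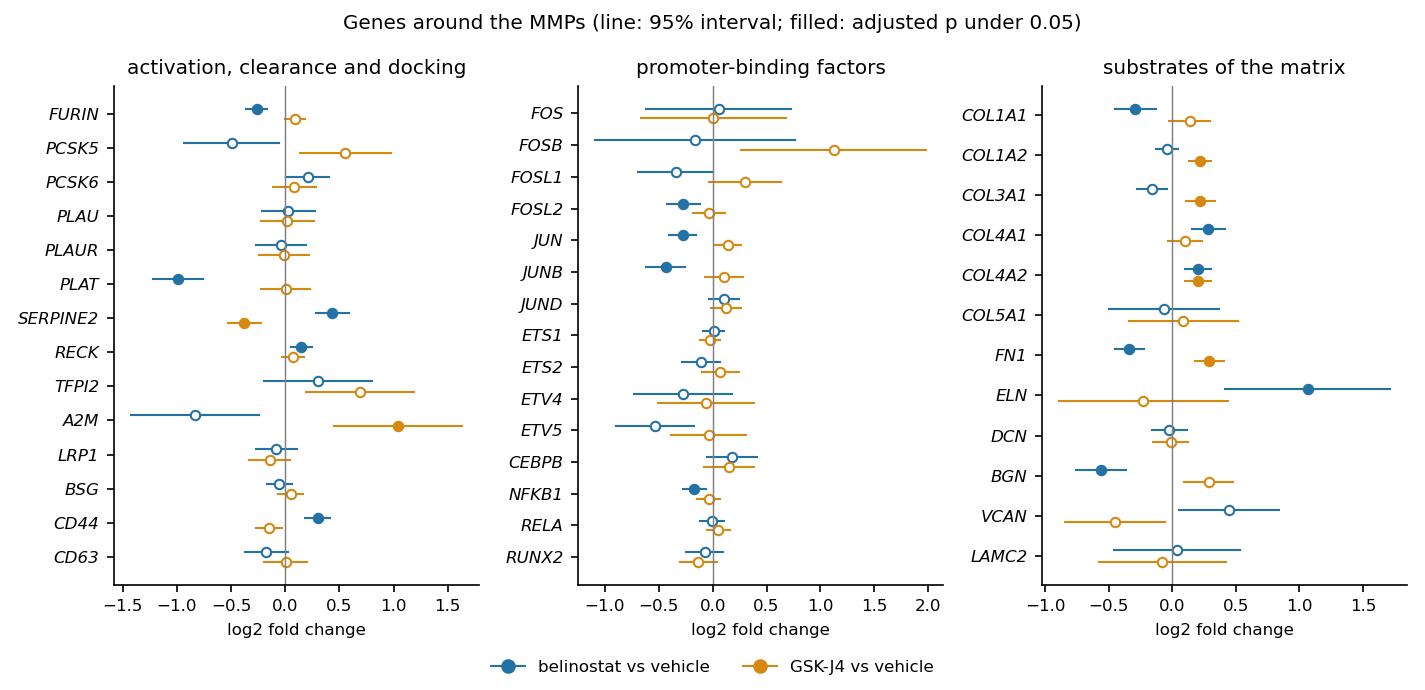
DESeq2 log2 fold changes with 95% intervals of the genes of 3 lists, for belinostat (blue) and GSK-J4 (orange) against vehicle, 4 libraries each, filled where the adjusted p was under 0.05. PLAT (-0.99) is the lowest filled point under belinostat, and no promoter-binding factor is filled under GSK-J4.

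The genes most like MMP1 across the 16 libraries, by Pearson's r on log2 of normalized counts + 1 among 11741 genes, were WLS (0.97), ACSL4 (0.96) and CTTNBP2 (0.93). Those most like MMP3 were PTGS2 (0.97), CDH13 (0.95) and PRRX1 (0.95). PTGS2, the inducible cyclooxygenase, averaged 78.0 ± 28.8 normalized counts in unstimulated cells, 142 ± 24.4 in vehicle, 104 ± 69.7 under belinostat and 272 ± 22.9 under GSK-J4, and its highest belinostat library held 208. The homeobox gene PRRX1 averaged 199.5 ± 46.1, 444 ± 63.5, 356 ± 121 and 669 ± 65.1. All libraries share 1 design, so genes that follow the groups correlate without any further link.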

How the data were processed

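RNA-seq of 16 libraries was taken from 1 table. The authors ran kallisto (version 0.48.0 in the submitters' processing notes, which also list FastQC 0.11.9, MultiQC 1.14 and hg38). They deposited estimated counts by gene symbol, not scaled to depth, of which 28.0% had decimals. They were rounded to whole numbers here. Groups came from the labels. Columns of the unstimulated libraries say none where titles say DMSO, and were matched by number.

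DESeq2 1.42.0 (R 4.3.3) was fitted on all 16 libraries by group alone, with median-of-ratios scaling and no prior filter. Wald p-values were Benjamini-Hochberg adjusted over all genes tested, and fold changes were not shrunken. Alternatives were edgeR 4.0.16 (quasi-likelihood), limma-voom 3.58.1, TMM factors, a filter of 10 counts in 4 libraries, only the groups compared, 2 surrogate variables (sva 3.50.0) and leaving out each library. Leaving out belinostat library 17 for the lists was added after seeing the data. The scripts were tested on simulated data. Coordinates and lengths are from GENCODE v44 by symbol.

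Members and lists were chosen with earlier results of these data known. Named beside the members are list genes called in at least 1 of the first 3 comparisons (up to 4 per list and comparison, over 20 normalized counts), and the 3 genes most correlated with MMP1 and with MMP3 (mean of at least 50). Any other gene named was chosen after its values were seen. A gene of 1 list is not reported here and was left out of its counts.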

Additional observations from a re-analysis of the deposited data

Results flagged for a closer look

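In 4 of 36 gene and group combinations, 1 library lay farther from the rest of its group than Dixon's 95% critical value of 0.829 for 4 samples allows. Chance alone flags about 1 in 20 such groups. Belinostat library 17 was high for MMP1 (482 normalized counts) and for MMP3 (1139.9). GSK-J4 library 22 was high for MMP10 (87.0), and unstimulated library 3 for MMP2 (52347). Without belinostat library 17, and also with 2 surrogate variables, MMP3 and MMP10 were called lower under belinostat than in vehicle.

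The belinostat and GSK-J4 effects share the vehicle libraries, so their difference is the direct contrast of the compounds. By DESeq2 it passed the test for 7 members, where 12.2% of all genes tested passed. On the log2 scale, belinostat minus GSK-J4 was -1.66 for MMP1, -1.81 for MMP3, -1.21 for MMP10, -0.29 for MMP2, -0.27 for MMP14, 0.57 for MMP11 and -0.19 for TIMP3. The libraries of the compounds did not overlap for MMP1, MMP3, MMP2, MMP11 and TIMP3, and they overlapped for MMP10 and MMP14.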

How the results depend on the processing

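No paired analysis was possible because the labels give no replicate number that the groups share. Of 756 values for the 9 members in 6 comparisons and 14 alternatives, 685 kept direction and call, 35 lost a call, 17 gained one and 19 changed sign, all 19 uncalled. Belinostat against vehicle called 2 members with edgeR and 3 in a fit of only these groups, against 5, and 3 to 6 with 1 library left out. It called 7 with 2 surrogate variables, with MMP3 and MMP10 gained, and 4 with limma-voom, with MMP3 gained and MMP14 and TIMP3 lost. Over all genes, this comparison called 889 of 14209 in the main fit, 711 of 14415 with edgeR and 705 of 14415 with limma-voom. It called 750 of 13691 with only these groups and 1132 of 14216 with 2 surrogate variables. With 1 library left out it called 664 to 1127 genes. GSK-J4 against vehicle called 1, MMP3, with only these groups and 1 with 2 surrogate variables, against 0, and 0 with any library left out. Over all genes it called 253 of 13197 in the main fit and 542 of 12736 with only these groups. With 2 surrogate variables it called 414 of 13709 genes, and with 1 library left out 132 to 193. Belinostat against unstimulated cells called 2 with edgeR and 2 with limma-voom, against 4, and 3 to 4 with 1 library left out. Over all genes it called 1461 of 14209 in the main fit, 1279 of 14415 with edgeR and 1229 of 14415 with limma-voom. With 1 library left out it called 989 to 1836 genes. GSK-J4 against unstimulated cells called 5 with 2 surrogate variables, against 3. Over all genes it called 1146 of 15739 with 2 surrogate variables, against 930 of 16747 in the main fit. The cause was not tested. With 1 library left out, vehicle against unstimulated cells called 2 to 3, belinostat against GSK-J4 5 to 8, and GSK-J4 against unstimulated cells 3 to 4. Over all genes, the same fits called 180 to 295, 1314 to 2136 and 651 to 980, in that order.

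Sign changes were small. With 2 surrogate variables, MMP1 in GSK-J4 against vehicle was -0.011 and TIMP3 in GSK-J4 against unstimulated cells 0.0038. With 1 library left out, vehicle against unstimulated cells ranged from -0.033 to 0.118 for TIMP1 and -0.043 to 0.017 for TIMP3, and TIMP2 in belinostat against vehicle from -0.048 to 0.0023. GSK-J4 against vehicle ranged from -0.038 to 0.308 for MMP1, -0.089 to 0.318 for MMP10, -0.028 to 0.208 for TIMP1 and -0.016 to 0.029 for TIMP3. MMP1 in belinostat against unstimulated cells ranged from -0.545 to 0.019, and TIMP3 in GSK-J4 against unstimulated cells from -0.038 to 0.021. Counts of MMP10 and MMP12 were low.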
